A study of Mus musculus with 18 samples.

Results

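The NADPH oxidase of phagocytes is the enzyme that makes superoxide in the respiratory burst, and 7 of its genes were followed here: *Cybb*, *Cyba*, *Ncf1*, *Ncf4*, *Rac1*, *Rac2* and *Hvcn1*. They were found by symbol among the 34896 genes of the expression table, and all 7 were present there and passed the filter on low values (at least 1 TPM in at least 3 libraries). RNA-seq had been done on granulo-monocytic progenitors (GMPs), pre-neutrophils (preNeu) and mature neutrophils (matNeu) sorted from bone marrow of wild type (WT) C57BL/6 mice aged 6-12 weeks, with 3 libraries for each stage. ChIP-seq, which recovers the DNA bound by a protein or carrying a histone mark, gave 1 library each for CHD4 in WT GMPs, for CHD4 in *Gfi1*-/- GMPs of the same strain and age, and for H3K4me2 in WT GMP, preNeu and matNeu cells. ATAC-seq, which marks open chromatin, gave peak lists for preNeu and matNeu cells that were identical, so that they count as 1 list and allow no comparison of stages. For GMPs, marrow of several bones was pooled and depleted of lineage-positive cells before sorting, and whether the 3 RNA libraries of a stage came from separate mice is not given, so that p-values measure the spread between these libraries, which may be technical.

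The membrane part of the enzyme, flavocytochrome b558, is a pair of proteins: CYBB (gp91phox) carries the electrons from NADPH to oxygen and CYBA (p22phox) stabilises it. On activation the cytosolic subunits NCF1 (p47phox, the organiser) and NCF4 (p40phox, which binds a membrane lipid) join it together with a RAC GTPase. HVCN1 is a voltage-gated proton channel that carries the charge left behind by the electrons, and loss of a subunit causes chronic granulomatous disease.

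Stages were checked against marker genes before the members were read. The summed level of 7 GMP markers (among them *Mpo*, *Elane* and *Cd34*) was 42624 to 44118 TPM in GMP libraries and 283 to 360 TPM in matNeu libraries. Of these markers 6 were lower in matNeu cells than in GMPs (54.1% of all genes tested). *Csf1r* was not, with means of 204 TPM in GMPs, 13.8 TPM in preNeu and 304 TPM in matNeu cells. The summed level of 7 preNeu markers (among them *Ltf*, *Camp* and *Ngp*) was 149145 to 175481 TPM in preNeu libraries, and that of 7 matNeu markers (among them *Cxcr2* and *Mmp8*) was 24585 to 27281 TPM in matNeu libraries. Neighbouring stages shared markers at lower levels. GMP markers summed to 8038 to 9092 TPM in preNeu libraries, preNeu markers to 4570 to 6853 TPM in matNeu libraries, and matNeu markers to 1534 to 1639 TPM in preNeu libraries. Each library therefore fitted the stage in its title, whereas another label field names a different cell type for 13 of the 18 samples of the series, all 9 RNA libraries among them. Markers of monocytes and macrophages, cells that also use this oxidase, had a summed level of 1168 to 1425 TPM in the GMP libraries, of 84.9 to 108 TPM in preNeu libraries and of 89.8 to 125 TPM in matNeu libraries, and none of the 7 was at 0 in every library of a stage. In the first step 2 of these 7 markers were higher (*C1qa* and *C1qb*) and 4 lower, and in the second step 1 was higher (*Adgre1*) and 4 were lower. The part of such cells in the results was not tested. Eosinophil markers, from another cell that uses the oxidase, summed to 930 to 1205 TPM in GMPs and to at most 51.3 TPM in the later stages. Most of the matNeu sum came from *Siglecf*, with means of 45.3 TPM in GMPs, 19.5 TPM in preNeu and 41.7 TPM in matNeu cells. Fewer cells of a type and less RNA per cell cannot be told apart in such bulk libraries.

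The sequences at the starts of *Cybb*, *Ncf1* and *Cyba* are shown because RefSeq promoter sequence (GRCm38.p6) was at hand for these 3 of the 7 genes. It was not at hand for *Ncf4*, *Rac1*, *Rac2* and *Hvcn1*. H3K4me2 peaks of preNeu and matNeu cells lay over the starts of all 7 genes, and CHD4 peaks of WT GMPs over those of *Cybb*, *Ncf1* and *Ncf4*. Each line runs from 120 bases before to 30 bases after the start site on the minus strand, and capitals mark matches, on either strand, to a SPI1 core (GAGGAA), a GFI1 core (AAATCA), a C/EBP motif (TTGCNNAA) or an IRF motif (GAAANNGAA), of which the SPI1 core and the IRF motif can overlap.
Cybb, chrX:9469295-9469444: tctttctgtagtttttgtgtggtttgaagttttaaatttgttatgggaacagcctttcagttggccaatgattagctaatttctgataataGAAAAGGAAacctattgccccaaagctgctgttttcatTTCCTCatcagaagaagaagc
Ncf1, chr5:134229596-134229745: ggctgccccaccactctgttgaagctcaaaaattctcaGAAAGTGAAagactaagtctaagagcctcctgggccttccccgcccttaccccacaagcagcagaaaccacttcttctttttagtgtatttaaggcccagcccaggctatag
Cyba, chr8:122432911-122433060: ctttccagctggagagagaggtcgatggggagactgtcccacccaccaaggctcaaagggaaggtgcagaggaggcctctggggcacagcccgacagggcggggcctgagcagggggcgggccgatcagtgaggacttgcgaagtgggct
In the *Cybb* line the IRF motif begins at base -29 and the SPI1 core, on the opposite strand, at base 10 after the start. The *Ncf1* line holds an IRF motif from base -82, and the *Cyba* line holds none of the 4. Among 27025 RefSeq promoters of 300 bases, 28.3% held the SPI1 core, 14.3% the GFI1 core, 10.8% the C/EBP motif and 8.57% the IRF motif. Over the same 300 bases *Cybb* held 1 SPI1 core and 3 IRF motifs, *Ncf1* 1 IRF motif and *Cyba* none of the 4. A match describes letters and is not evidence that a factor binds.

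All 7 genes rose from GMPs to preNeu cells, *Cybb* most and *Rac1* with the least certainty. *Cybb* was at 98.6, 81.5 and 61.3 TPM in the GMP libraries and at 1838, 1886 and 2171 TPM in the preNeu libraries, where it was the most abundant of the 7 genes. It then stood at 239, 317 and 303 TPM in the matNeu libraries. The preNeu libraries lay above all others, and the matNeu libraries lay above the GMP libraries without overlap. Mean *Cybb* was thus 24.4-fold higher in preNeu cells than in GMPs and 6.86-fold higher in preNeu than in matNeu cells. On the scale of log2(TPM + 1) it rose by 4.62 (SE 0.18, adjusted p = 1.453e-08, limma) in the first step and fell by 2.78 (SE 0.18, adjusted p = 1.999e-07) in the second. Of 13061 genes tested, 73 had a first step at least as large, *Cybb* included.

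*Cyba*, the partner of *Cybb* in the membrane, kept its level in matNeu cells within the spread of the libraries. It was at 108, 125 and 143 TPM in GMPs, at 943, 806 and 654 TPM in preNeu and at 1051, 971 and 678 TPM in matNeu cells. The GMP libraries lay below all others, and preNeu and matNeu libraries overlapped. *Cyba* rose by 2.66 (SE 0.19, adjusted p = 1.518e-06) from GMPs to preNeu, and the change from preNeu to matNeu was 0.16 (SE 0.19, adjusted p = 0.493, 95% interval -0.26 to 0.58). The ratio of *Cybb* to *Cyba* in TPM was 0.428 to 0.917 in the GMP, 1.95 to 3.32 in the preNeu and 0.228 to 0.446 in the matNeu libraries. The pair of genes for the flavocytochrome was thus in favour of *Cybb* in the preNeu libraries and in favour of *Cyba* in the 6 others.

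The cytosolic subunits of the set, *Ncf1* and *Ncf4*, had their highest level in preNeu cells. *Ncf1* was at 219, 238 and 197 TPM in GMPs, at 1060, 1210 and 1201 TPM in preNeu and at 789, 717 and 824 TPM in matNeu cells. *Ncf4* was at 271, 194 and 239 TPM in GMPs, at 1368, 1652 and 1328 TPM in preNeu and at 866, 932 and 846 TPM in matNeu cells. In both genes the 3 stages did not overlap, with matNeu between GMP and preNeu. *Ncf1* rose by 2.41 (SE 0.11, adjusted p = 6.939e-08) and *Ncf4* by 2.63 (SE 0.14, adjusted p = 1.722e-07) in the first step. In the second step *Ncf1* fell by 0.57 (SE 0.11, adjusted p = 0.000905) and *Ncf4* by 0.71 (SE 0.14, adjusted p = 0.000939). Both calls of the second step were lost when libraries were scaled by median-of-ratios size factors, with changes of -0.20 (adjusted p = 0.0781) for *Ncf1* and -0.34 (adjusted p = 0.0661) for *Ncf4*.

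The RAC GTPases differed in how well their changes were measured. *Rac2*, the form that predominates in blood cells, was at 482, 409 and 470 TPM in GMPs, at 1469, 1478 and 1315 TPM in preNeu and at 2029, 2142 and 2133 TPM in matNeu cells. The 3 stages did not overlap and rose in that order. *Rac2* rose by 1.65 (SE 0.10, adjusted p = 4.937e-07) in the first step and by 0.57 (SE 0.10, adjusted p = 0.000503) in the second, and it was the most abundant of the 7 genes in GMPs and in matNeu cells.

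*Rac1*, the widely expressed form, was at 33.9, 77.1 and 425 TPM in GMPs, at 494, 495 and 511 TPM in preNeu and at 201, 558 and 624 TPM in matNeu cells. The GMP libraries spanned 12.2-fold, a span reached by 24 of 8450 genes with a mean of at least 10 TPM in GMPs, and GMP replicate 3 and matNeu replicate 1 stood apart from their groups. The first step of *Rac1* was 2.25 (SE 0.74, adjusted p = 0.0227) and its change from GMPs to matNeu cells 1.97 (SE 0.74, adjusted p = 0.0308). Without GMP replicate 3 the first step was 3.26 (adjusted p = 0.000377), without GMP replicate 1 it was 1.46 (adjusted p = 0.0832) and without GMP replicate 2 it was 2.04 (adjusted p = 0.074), so that the call did not hold without either of the latter. Leaving out any 1 preNeu library also ended the call (adjusted p = 0.0572, 0.0531 and 0.0583), with changes of 2.24 to 2.26. The change from GMPs to matNeu cells was lost without GMP replicate 1 (1.18, adjusted p = 0.124) or 2 (1.76, adjusted p = 0.0922) and without matNeu replicate 2 (1.76, adjusted p = 0.0931) or 3 (1.68, adjusted p = 0.0991). From preNeu to matNeu its change was -0.28 (SE 0.74, adjusted p = 0.768, 95% interval -1.92 to 1.36). *Rac1*, *Rac2* and *Rac3* are close paralogs, and how the TPM step shared reads between them is not given, so that the split between them is uncertain.

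*Hvcn1*, the proton channel, was the member that ended below its starting level. It was at 122, 113 and 92.8 TPM in GMPs, at 403, 447 and 440 TPM in preNeu and at 11.1, 10.7 and 13.9 TPM in matNeu cells. The 3 stages did not overlap, and mean *Hvcn1* was 36.1-fold lower in matNeu than in preNeu cells and 9.17-fold lower than in GMPs. It rose by 1.97 (SE 0.15, adjusted p = 2.189e-06) in the first step and fell by 5.07 (SE 0.15, adjusted p = 1.235e-09) in the second, and its change from GMPs to matNeu cells was -3.09 (SE 0.15, adjusted p = 1.2e-08). The ratio of *Hvcn1* to *Cybb* in TPM was 1.24 to 1.52 in the GMP, 0.203 to 0.237 in the preNeu and 0.0338 to 0.0464 in the matNeu libraries, with no overlap between stages.

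**Figure D1:**
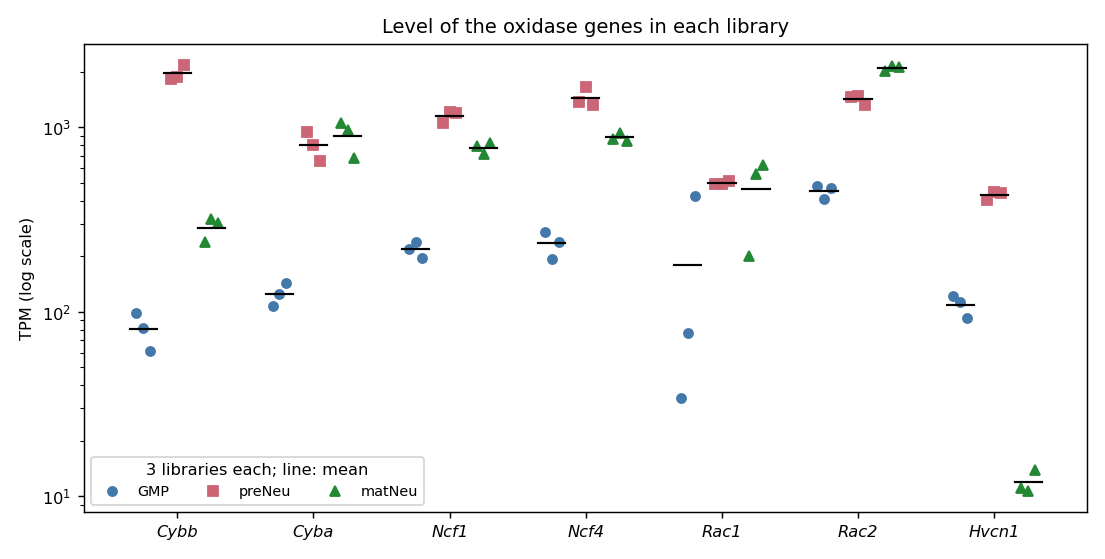
TPM (log scale) of the 7 oxidase genes in each of 3 GMP (circles), 3 preNeu (squares) and 3 matNeu (triangles) libraries, with a line at each mean. The preNeu squares of *Cybb* (1838 to 2171 TPM) stand above its other libraries, *Hvcn1* drops to 10.7 to 13.9 TPM in matNeu cells, and the GMP circles of *Rac1* spread from 33.9 to 425 TPM.

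Over the set, 7 of 7 genes were higher in preNeu cells than in GMPs (14.7% of all genes tested were higher) and 0 of 7 were lower (44.3% of all genes). The call of *Rac1* among them was lost under several alternatives, among them leaving out any single preNeu library. Between preNeu and matNeu cells 1 of 7 was higher (22.9% of all genes) and 4 of 7 were lower (39.8% of all genes). With median-of-ratios scaling 2 of 7 were lower there (*Cybb* and *Hvcn1*). Between GMPs and matNeu cells 6 of 7 were higher (22.8% of all genes) and 1 of 7 was lower (54.1% of all genes). The contrast of the second step minus the first was below 0 at the threshold in 6 of 7 genes (21.5% of all genes) and above 0 in none (26.4% of all genes), and *Rac1* did not pass it (-2.53, SE 1.28, adjusted p = 0.128), except without GMP replicate 3 (-3.54, adjusted p = 0.00445). This contrast was -7.40 (SE 0.30) for *Cybb*, -7.04 (SE 0.26) for *Hvcn1*, -3.34 (SE 0.24) for *Ncf4*, -2.98 (SE 0.19) for *Ncf1*, -2.50 (SE 0.33) for *Cyba* and -1.08 (SE 0.17) for *Rac2*. Both steps share the preNeu libraries, so that they are not independent of each other.

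The median change of the 7 genes in the first step was 2.41, and that of all genes tested was -0.52. In the second step the medians were -0.57 for the set and -0.32 for all genes, and from GMPs to matNeu cells 1.92 and -0.92. Relative to the median of all genes, the second step of *Ncf1* was -0.26 and that of *Ncf4* was -0.39, whereas that of *Cybb* was -2.46 and that of *Hvcn1* was -4.75. The 7 genes together made up 0.124 to 0.163% of the TPM of a GMP library, 0.758 to 0.797% of a preNeu library and 0.519 to 0.565% of a matNeu library. In the same libraries the 10 most abundant genes took 9.15 to 9.78%, 24.1 to 28.3% and 12.7 to 15.9% of the TPM, and TPM shares its total among all genes.

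**Figure D2:**
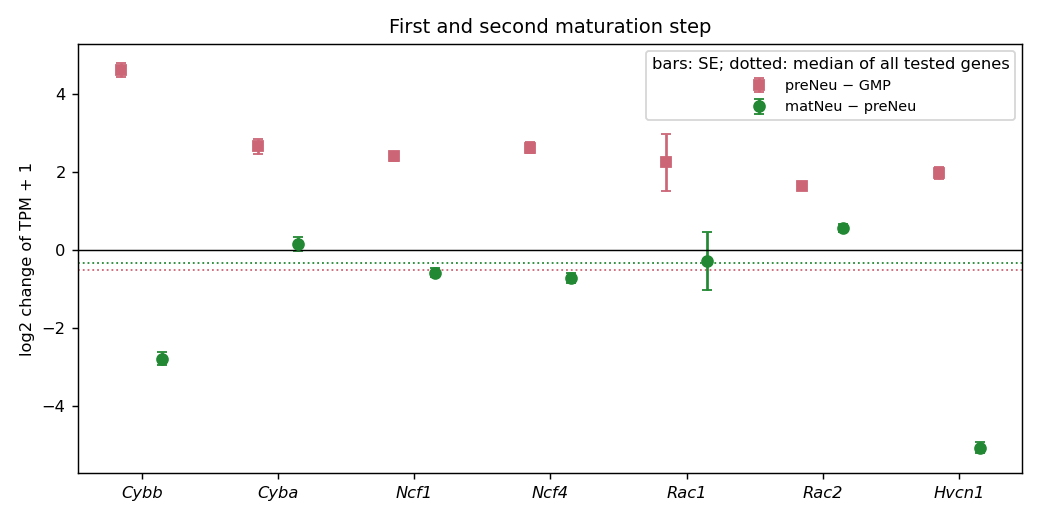
Change in log2(TPM + 1) with its SE for each gene in the first step (preNeu minus GMP, squares) and the second (matNeu minus preNeu, circles), with dotted lines at the medians of all tested genes (-0.52 and -0.32). The 7 squares lie above 0, and the circles of *Cybb* (-2.78) and *Hvcn1* (-5.07) lie far below it.

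The order of the genes by level changed between the stages. In GMPs *Rac2* came first (454 ± 38.9 TPM, SD, n = 3), and the neighbours among the 6 others overlapped in range, down to *Cybb* (80.4 ± 18.7 TPM). In preNeu cells the order was *Cybb* (1965 ± 180 TPM), *Ncf4*, *Rac2*, *Ncf1*, *Cyba*, *Rac1* and *Hvcn1* (430 ± 23.6 TPM), and *Ncf4* and *Rac2* were the neighbours whose ranges overlapped. In matNeu cells the order was *Rac2* (2101 ± 62.7 TPM), *Cyba*, *Ncf4*, *Ncf1*, *Rac1*, *Cybb* (286 ± 41.4 TPM) and *Hvcn1* (11.9 ± 1.75 TPM), with overlap between *Cyba* and *Ncf4* and between *Rac1* and *Cybb*. With 3 stages sampled, an order of induction within the first step could not be resolved.

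Likeness of pattern was measured as Pearson's r of log2(TPM + 1) over the 9 libraries, which are 3 stages of 3 libraries, as a description. Within the set *Ncf1* and *Ncf4* were closest to each other (r = 0.984), followed by *Cyba* and *Rac2* (r = 0.964), and *Hvcn1* was at most at 0.493 with any other member (*Cybb*). Among genes of at least 10 TPM on average, *Cybb* was most like *Olfml2b* (0.993) and *Tbc1d8* (0.993), *Cyba* most like *Pglyrp1* (0.997) and *Prdx5* (0.995), and *Ncf1* most like *Cd24a* (0.996) and *Itgb2l* (0.993). *Ncf4* was most like *Clec4a2* (0.995) and *Anxa1* (0.994), *Rac2* most like *Hp* (0.999) and *Crispld2* (0.996), *Hvcn1* most like *Btnl9* (0.997) and *Cd47* (0.995), and *Rac1* most like *Stk11* (0.983) and *Gnb2* (0.963).

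Of 12 paralogs, their partners and assembly factors, 4 passed the filter. *Nrros*, which binds and holds back the flavocytochrome, was at 368 to 436 TPM in GMPs, 117 to 154 TPM in preNeu and 248 to 288 TPM in matNeu cells. It fell by 1.56 (SE 0.13, adjusted p = 4.106e-06) in the first step and rose by 1.00 (SE 0.13, adjusted p = 4.98e-05) in the second, opposite in direction to *Cybb* in both. *Cybc1*, the chaperone of the flavocytochrome, changed by 0.12 (adjusted p = 0.428) and 0.20 (adjusted p = 0.178) in the steps and by 0.33 (SE 0.12, adjusted p = 0.0335) from GMPs to matNeu cells, which passed. The paralogs *Nox4* (at most 4.16 TPM) and *Rac3* (at most 1.80 TPM) were at the edge of detection. The other 8 genes, *Nox1*, *Nox3*, *Noxo1*, *Noxa1*, *Duox1*, *Duox2*, *Duoxa1* and *Duoxa2*, did not pass the filter.

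Of 21 activators and switches of the oxidase, 8 were higher and 6 lower in preNeu cells than in GMPs, 8 higher and 8 lower in matNeu than in preNeu cells, and 11 higher and 8 lower in matNeu cells than in GMPs. Of all genes tested, 14.7% were higher and 44.3% lower in the first of these comparisons, 22.9% and 39.8% in the second, and 22.8% and 54.1% in the last. With median-of-ratios scaling 2 activators were lower in the first of these comparisons and 3 in the last. *Prkcb*, a protein kinase C that phosphorylates NCF1, rose with *Cybb* in the first step (3.08, SE 0.15, adjusted p = 8.961e-08) and was at 9.23, 85.2 and 81.0 mean TPM in GMPs, preNeu and matNeu cells. *Prex1*, an exchange factor for RAC, rose instead in the second step (3.20, SE 0.16, adjusted p = 4.317e-08), and *Rhog*, a GTPase upstream of RAC, rose in both (1.04 and 0.89). The largest decreases from GMPs to matNeu cells were those of *Prkca* (-2.14), *Tiam1* (-1.57) and *Pla2g4a* (-1.41).

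Of 10 genes listed for NADPH supply, 9 passed the filter (not *Me1*). The list takes in pentose phosphate genes whose enzymes make no NADPH themselves, among them *Pgls*, *Rpe* and *Taldo1*. Of the 9 genes, 5 were higher and 3 lower in preNeu cells than in GMPs. In matNeu cells 2 were higher and 7 lower than in preNeu cells, and 3 were higher and 6 lower than in GMPs. The shares of all genes were again 14.7% and 44.3%, 22.9% and 39.8%, and 22.8% and 54.1% for these comparisons. *G6pdx*, the entry enzyme of the pentose phosphate pathway, rose by 1.54 (SE 0.12, adjusted p = 2.431e-06) in the first step and fell by 0.90 (SE 0.12, adjusted p = 5.372e-05) in the second. *Pgd*, which makes the second NADPH of that pathway, rose in both steps, to 1511 ± 82.0 TPM (SD, n = 3) in matNeu cells, and *Taldo1*, a transaldolase, to 3642 ± 333 TPM. *Idh2*, the mitochondrial source of NADPH, went from 780 ± 17.2 TPM in GMPs to 4.34 ± 1.13 TPM in matNeu cells, a change of -7.21 (SE 0.18, adjusted p = 2.176e-10). *Pgls* (-2.87) and *Rpe* (-2.39) followed among the decreases from GMPs to matNeu cells.

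Of 21 genes for the disposal of reactive oxygen species, 6 were higher and 9 lower in preNeu cells than in GMPs, 5 higher and 9 lower in matNeu than in preNeu cells, and 7 higher and 11 lower in matNeu cells than in GMPs. The shares of lower genes were near those of all genes (44.3%, 39.8% and 54.1%), as was that of higher genes in the second step (22.9%), and 14.7% and 22.8% of all genes were higher in the first and last comparison. *Hmox1*, a heme oxygenase (4.61, SE 0.22), *Txnip*, an inhibitor of thioredoxin (3.70, SE 0.17), and *Gsr*, glutathione reductase (2.66, SE 0.28), had the largest increases from GMPs to matNeu cells. As an inhibitor *Txnip* works against disposal, so that the counts and the median of this list mix directions of function. The peroxiredoxins *Prdx2* (-4.70, SE 0.20), *Prdx1* (-4.49, SE 0.26) and *Prdx3* (-4.10, SE 0.22) had the largest decreases, while *Prdx5* rose by 2.30 (SE 0.17) and was the second most like *Cyba* in its pattern. The medians of the lists from GMPs to matNeu cells were 0.47 for activators, -2.18 for NADPH supply and -1.06 for disposal, against -0.92 for all genes.

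Peaks were then read in each gene and 10 kb on either side, in GENCODE M21 on GRCm38. CHD4 is the ATPase of the NuRD complex, which slides nucleosomes and removes acetyl groups from histones, and GFI1 is a repressor that the study places beside it. In WT GMPs 5 of 7 members had at least 1 CHD4 peak, against 32.4% of 21938 protein-coding genes. *Cybb* had 15 peaks, *Rac1* and *Hvcn1* 3 each, *Ncf4* 2 and *Ncf1* 1, while *Cyba* and *Rac2* had 0 (within 20 kb, 6 of 7 members had a peak). A count of 15 or more was reached by 309 protein-coding genes (1.41%), and as high a number per kb (0.207) by 1.13%. The 1 library of each genotype leaves these counts without a replicate check.

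*Cybb* lies on the minus strand of chromosome X (9435252 to 9487771), and its principal transcript starts at 9469324 within that span, so that all but 1 of its CHD4 peaks before the start (at -20263 bp) are still inside the annotated gene. The strongest of its CHD4 peaks lay in an intron 8775 bp after the start (X, 9460300 to 9461068, fold enrichment 27.6, above 94.2% of all WT peaks), followed by peaks at -4614 (9473309 to 9474321, 27.0), at -1665 (9470718 to 9471417, 25.1), over the start site itself (9468981 to 9469609, 22.6) and at 6425 bp (9462680 to 9463171, 22.3). The other 10 had fold enrichments of 5.51 to 16.4. Peaks at the other members were weaker than these 5, though not than all peaks of *Cybb*. At *Ncf4* a peak over the start (15, 78244637 to 78245106) had a fold enrichment of 7.64 and one in an intron 6.59. At *Hvcn1* the strongest was intronic (5, 122210939 to 122211268, 9.31), at *Rac1* the strongest lay upstream (5, 143530747 to 143530965, 6.52), and at *Ncf1* a peak over the start (5, 134229533 to 134229720) had 4.61, above 7.7% of all WT peaks.

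In *Gfi1*-/- GMPs 1 of 7 members, *Cybb*, had a CHD4 peak, against 10.2% of protein-coding genes. Of the 24 WT sites at the members, 5 were overlapped by at least 1 bp by a *Gfi1*-/- peak, against 18.5% of all 35790 WT sites, and all 5 were sites of *Cybb*. Fold enrichment was 27.6 in WT and 6.66 in *Gfi1*-/- GMPs at the intronic site, 16.4 and 7.49 at 2120 bp, 22.6 and 7.77 at the start, 25.1 and 8.32 at -1665, and 27.0 and 7.12 at -4614. The ratios of 2.20 to 4.15 lay on both sides of the median ratio of all overlapped sites (3.05), 98.6% of which had the higher value in WT. The *Gfi1*-/- list is shorter (7316 peaks), and the read depth behind each list is unknown. A loss of CHD4 and a weaker library cannot be told apart. The paper counts far fewer CHD4 sites in WT GMPs than the list read here, so that shares of sites are not comparable between them. The paper reports that most sites shared by GFI1 and CHD4 lost CHD4 when GFI1 was absent, whereas sites with CHD4 but without GFI1 largely kept it. It also reports loss of CHD4 by ChIP-qPCR at selected genes, and levels of CHD4 RNA and protein that were not altered. GFI1 sites were not read here, so that how many CHD4 sites depend on GFI1 was not tested.

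The share of overlapped sites differed with enrichment over the whole list. Of 10 equal groups of WT sites ordered by fold enrichment, groups 1 to 5 (the weakest) had 0.643 to 3.91% overlapped, group 9 had 49.9% and group 10 (the strongest, 21.2 and above) had 92.9%. At *Cybb* 4 of 5 sites in group 10 and 1 of 2 in group 9 were overlapped, and 0 of 8 in the weaker groups. The exception in group 10 was the site at 6425 bp. The 9 sites of the other members lay in groups 1, 2, 4, 5 and 7, in which 0.643 to 8.63% of all sites were overlapped, and 0 of these 9 were.

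Windows of 101 bases around the summits of the 3 strongest overlapped *Cybb* sites outside the start, and of the strong site without overlap, are shown on the minus strand of GRCm38.p6, with the same motifs in capitals, so that the 2 kinds can be compared.
Overlapped site at 8775, chrX:9460499-9460599: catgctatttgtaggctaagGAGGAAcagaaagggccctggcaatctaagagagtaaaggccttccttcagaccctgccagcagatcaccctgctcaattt
Overlapped site at -1665, chrX:9470939-9471039: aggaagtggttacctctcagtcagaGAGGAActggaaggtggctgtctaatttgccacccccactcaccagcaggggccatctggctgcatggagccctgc
Overlapped site at -4614, chrX:9473888-9473988: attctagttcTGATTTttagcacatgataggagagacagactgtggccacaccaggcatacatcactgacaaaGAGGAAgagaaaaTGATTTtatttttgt
Site at 6425 without overlap, chrX:9462849-9462949: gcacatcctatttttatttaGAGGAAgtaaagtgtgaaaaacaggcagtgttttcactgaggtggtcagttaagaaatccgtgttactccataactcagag
Each of the 4 windows holds a SPI1 core, and the window at -4614 also holds the GFI1 core, on the opposite strand, at 2 places. The site at 6425 without overlap held 1 GFI1 core too, outside the 101 bases shown but within 100 bases of its summit. In windows reaching 100 bases to either side of the summits, 11 of 15 *Cybb* sites and 5 of 9 sites of the other members held the SPI1 core, against 46.1% of 35728 WT sites on assembled chromosomes. All 5 overlapped *Cybb* sites held it, against 48.6% of all overlapped sites. The GFI1 core was in 4 of 15 *Cybb* sites, 1 of them overlapped, and in 0 of 9 others, against 12.1% of all WT sites, the C/EBP motif was in 2 of 15 and 2 of 9 (17.3%), and the IRF motif in 2 of 15 and 1 of 9 (12.0%).

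**Figure D3:**
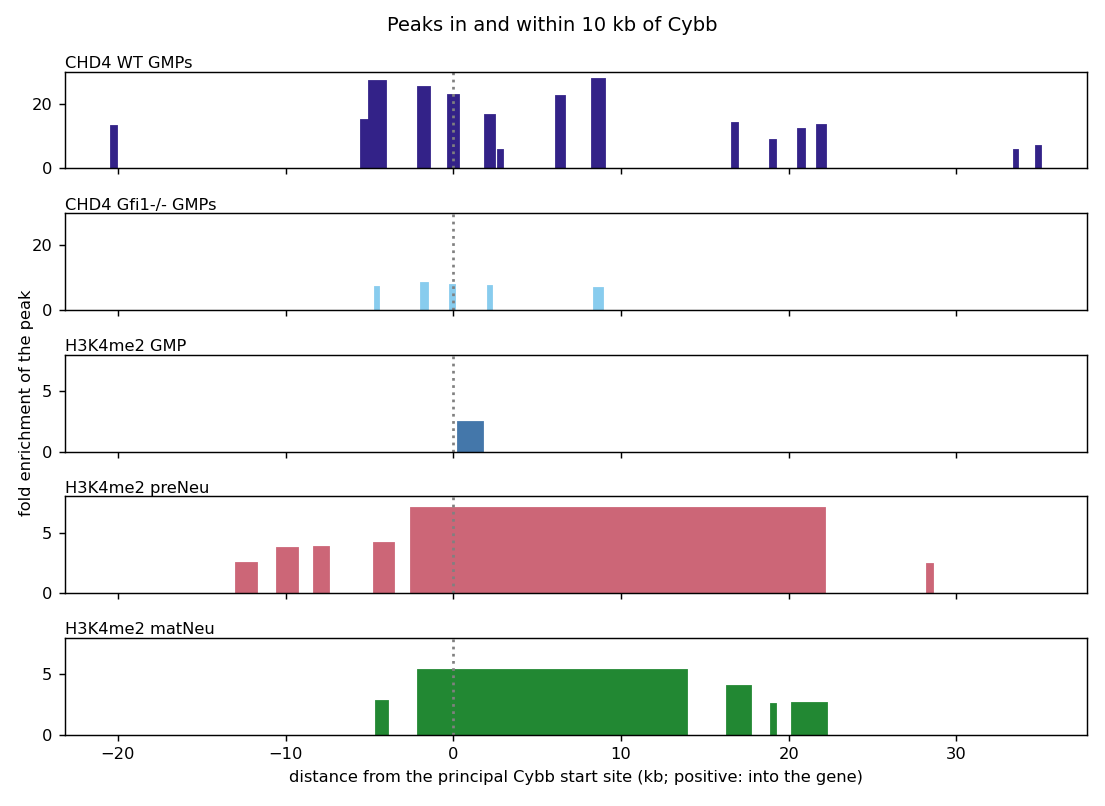
Fold enrichment of each peak (bar height, bar width the peak's extent) against distance in kb from the principal *Cybb* start site, for CHD4 in WT and *Gfi1*-/- GMPs and for H3K4me2 in GMP, preNeu and matNeu cells, 1 library each. The 15 WT CHD4 peaks reach 27.6, the 5 *Gfi1*-/- peaks reach 8.32 at positions shared with WT peaks, and H3K4me2 goes from 1 narrow peak in GMPs to a domain over the start in preNeu and matNeu cells.

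H3K4me2 is a histone mark of promoters and enhancers. All 7 members had an H3K4me2 peak in each stage, against 73.6% of protein-coding genes in GMPs, 74.2% in preNeu and 72.1% in matNeu cells. With a stricter cut-off (-log10 q-value of at least 5) 2 of 7 had one in GMPs and 7 of 7 in the later stages, and this cut-off kept 18.8% of all GMP peaks, 58.0% of all preNeu peaks and 50.3% of all matNeu peaks. The length under peaks at the 7 members, of 301.5 kb in all, was 48.5 kb in GMPs, 142.6 kb in preNeu and 118.3 kb in matNeu cells. The whole lists also grew, to 1.96 times the GMP length in preNeu and 1.61 times in matNeu cells, where the members reached 2.94 and 2.44 times.

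*Cybb* had the largest increase in length under H3K4me2 peaks. In GMPs 1 peak of 1.50 kb (X, 9467563 to 9469061, fold enrichment 2.45, above 10.7% of that list) lay just inside the gene without reaching the start site. In preNeu cells a domain of 24.7 kb (9447166 to 9471859, fold enrichment 7.02) ran over the start, and in matNeu cells one of 16.0 kb (9455364 to 9471402, 5.37) did. The covered length at *Cybb* was thus 1.50, 29.7 and 20.6 kb, 19.8 times the GMP length in preNeu cells, a factor reached by 0.273% of 16145 protein-coding genes with a peak in GMPs. Of the 15 WT CHD4 sites at *Cybb*, 1 was overlapped by an H3K4me2 peak in GMPs and 11 each in preNeu and matNeu cells. Over all members these counts were 9, 20 and 20 of 24, against 37.8%, 59.5% and 52.5% of all WT CHD4 sites.

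In GMPs an H3K4me2 peak lay over the start of *Cyba*, *Ncf1*, *Rac1*, *Rac2* and *Hvcn1*. At *Ncf4* the nearest peak began 189 bp after the start, and at *Cybb* 263 bp after it, so that *Cybb* did not differ in presence. The *Cybb* peak was narrower (1499 bp against 2053 to 5468 bp). It was also weaker, with a -log10 q-value of 1.15 against 3.95 (*Cyba*) to 5.52 (*Ncf4*). Of these peaks only that of *Ncf4* passed the stricter cut-off. Covered length at the other members was 1.63 times (*Hvcn1*) to 3.40 times (*Ncf4*) the GMP length in preNeu cells, where the median gene was at 1.48 times. *Ncf1* had the largest covered share in the later stages, with 26.2% of its window in GMPs (*Hvcn1* had 26.3%), 81.4% in preNeu and 74.5% in matNeu cells. *Cyba* had the peak of the highest enrichment, 15.9 over its start in preNeu cells (above 99.2% of that list), 11.1 in matNeu cells and 3.38 in GMPs, each with 1 library. *Rac2* went from 19.4% covered in GMPs to 57.3% and 55.1%, and *Rac1* from 13.7% to 30.3% and 27.6%. *Hvcn1* went to 42.8% in preNeu and 33.0% in matNeu cells, and a peak lay over its start in each stage, also in matNeu cells (fold enrichment 8.91), where its RNA was at 10.7 to 13.9 TPM. Covered length was lower in matNeu than in preNeu cells at 7 of 7 members, against 85.4% of the 16268 protein-coding genes with a preNeu peak. The members together had 0.83 times the preNeu length and the whole list 0.821 times, so that the decrease was near that of the list. Windows of *Cyba*, *Ncf1*, *Rac1* and *Hvcn1* also hold other protein-coding genes (among them *Mvd*, *Gtf2i*, *Daglb* and *Tctn1*), whose marks are counted with theirs.

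**Figure D4:**
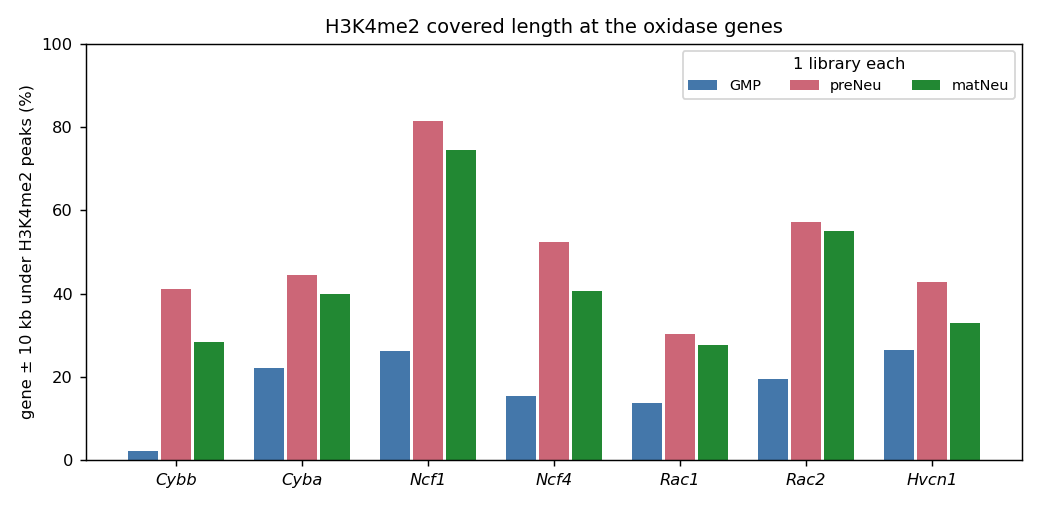
Share of each gene with 10 kb on either side that lies under H3K4me2 peaks (%), in GMP, preNeu and matNeu cells with 1 library each and no error. *Cybb* goes from 2.07% to 41.0% and 28.4%, and each gene has its highest bar in preNeu cells.

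In the ATAC-seq list, 5 of 7 members had a peak, against 52.9% of protein-coding genes. *Ncf1* had 4 peaks, *Ncf4* and *Rac2* 3 each, *Cyba* 2 and *Rac1* 1, and in each of these 5 genes 1 peak lay over the principal start site. Of these start-site peaks only that of *Ncf1* passed the stricter cut-off (-log10 q-value 5.57), and the others had 3.04 (*Cyba*) to 4.82 (*Rac2*). No ATAC-seq peak of *Rac1* or *Rac2* passed that cut-off, which kept 35.5% of the whole list. *Cybb* and *Hvcn1* had 0 peaks within 10 kb. Of the stages named for this list, *Cybb* had 1838 to 2171 TPM in preNeu cells, and since the preNeu and matNeu lists are the same, which stage the list describes is not known.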

How the data were processed

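RNA-seq, ChIP-seq and ATAC-seq of sorted mouse bone marrow cells were read from the deposited files. The authors deposited TPM per gene and library, which keeps no depth, so that depth is unknown. How TPM was computed is not given in the sources used here (the submitters' processing notes name kallisto 0.44.0, the paper Tophat and HTSeq). The authors deposited 1 peak list per library, with a fold enrichment (a linear ratio) and a -log10 q-value for each peak. MACS2 2.1.0, BWA 0.7.17 and Trimmomatic 0.36 stand in the submitters' processing notes. The H3K4me3 and GFI1 lists carry chromosome names that are not those of the mouse and were not used. Samples were grouped by title. The table left 0 columns of samples unused.

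Genes that reached 1 TPM in 3 or more libraries (13061) entered a limma fit (limma 3.58.1, R 4.3.3) of log2(TPM + 1). Stage was its sole factor, the variance followed the mean level, and two-sided p-values were adjusted over all these genes after Benjamini and Hochberg (threshold 0.05). A fold change on this scale understates that of low genes. The study's methods name DESeq on counts, which TPM does not allow. Simulated data with known changes were used to test this fit. For 3 against 3 libraries the smallest p of an exact permutation test is 0.1. Whether same-numbered libraries were paired is not given. They deviated together with r of -0.0394 to 0.123, 1 of 9 pairs above 0.1, and other pairs with r of -0.128 to 0.0706. Such small values cannot settle whether the libraries were paired, and no pairing was used in the main fit.

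Peaks were read in Python 3.11.15 (numpy 2.4.6, pandas 2.3.3, drawn with matplotlib 3.10.9) in the gene and 10 kb on either side (GENCODE M21), and genome sequence with the index of samtools 1.23.1. Peaks of 2 lists overlapped when they shared at least 1 bp. No test was made over peaks. Named genes were the 7 members, the measured paralogs, partners and assembly factors, up to 3 of the largest increases and decreases of each wider list from GMPs to matNeu cells, the 2 genes most like each member, and markers. *Prdx5* and *Nrros* fall under this rule, and *C1qa*, *C1qb* and *Adgre1* are markers. 1 further gene is not reported here. The members and lists were chosen with earlier results of these data known. Alternatives were other pseudocounts, filters, scalings, fits and peak rules, and leaving out each library.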

Additional observations from a re-analysis of the deposited data

How the results depend on the processing

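Counts of members (by RNA, CHD4 peaks and H3K4me2 peaks), sites and covered length were the same within 1.5 times under 153 of 156 alternatives. The exceptions were the members lower in matNeu than in preNeu cells, 2 in place of 4 with median-of-ratios scaling, and, when peaks under 5 in -log10 q-value were dropped, the members with an H3K4me2 peak in GMPs (2 in place of 7) and the length under such peaks (4.2 kb in place of 48.5 kb). Log2 changes of single genes (the 7 members and *Nrros*) kept direction and side of the threshold in 517 of 536 cases. From preNeu to matNeu cells *Rac1* went to 0.091 with median-of-ratios scaling and ranged from -0.578 to 0.238 when each library was left out (0.238 without matNeu replicate 1), and *Cyba* went to -0.073 when the 50 most abundant genes were left out of the scaling, none of them past the threshold. *Nrros* went from -0.56 to 0.33 (adjusted p = 0.0157) from GMPs to matNeu cells with median-of-ratios scaling. *Rac1* lost its calls also without a filter on low TPM (adjusted p = 0.0658 in the first step, 0.0794 from GMPs to matNeu cells) and in a fit of the compared groups alone (0.0704 from GMPs to matNeu cells). Counts of higher members that lost only *Rac1* stayed within 1.5 times and were scored as the same. Counts over the wider lists moved beyond 1.5 times in 26 of 536 cases. Median-of-ratios scaling changed the split of all genes from 1925 higher and 5781 lower to 3027 and 3679 (preNeu against GMPs), from 2995 and 5202 to 3944 and 4414 (matNeu against preNeu) and from 2976 and 7065 to 4498 and 5453 (matNeu against GMPs). With the replicate block, 7652 in place of 7706 of all genes passed in the first step and the members' counts were 7 higher in the first step, 1 higher and 4 lower in the second, and 6 higher and 1 lower from GMPs to matNeu cells. Whether same-numbered libraries share more than a number is not given. Depth is unknown for every list and library, and each ChIP-seq result rests on 1 library.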
